A study of Homo sapiens with 36 samples.

Results

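The genes of DNA replication and mitosis were followed through 36 RNA-seq libraries of THP-1 cells, a human monocytic leukaemia line that divides continuously in culture. The 50 genes were taken from a fixed list of S-phase and mitotic genes, by symbol, out of 57500 genes in the files. No cut on a measured value was applied, but the list was chosen with earlier results of these data known. They fell into 6 roles: 12 genes of origin licensing and the replication fork, 4 of nucleotide supply and uracil repair, 3 E2F factors, 6 G1 and S cyclins with the phosphatase CDC25A, 22 genes of G2 and mitosis, and 3 inhibitors of cyclin-dependent kinases (CDKs).

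The cells carried a non-target short hairpin RNA (shNT) or one against NR4A2 (shNR4A2) or NR4A3 (shNR4A3), nuclear receptors that act as transcription factors. All 3 lines were made by lentiviral transduction, so the control cells carried a vector as well, and with 1 stable line per hairpin an effect of the hairpin and a difference between the cell lines cannot be told apart. Cells were kept for 4 h in buffered medium at 5% CO2 (normocapnia) or 10% CO2 (hypercapnia), and lipopolysaccharide (LPS), a bacterial cell wall component that activates monocytes, was given at 2.5 µg/mL for the last 2 h or left out (basal). The 12 conditions had 3 libraries each, described in the study as individual experiments.

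A dividing cell first loads the MCM helicase on its replication origins, a step made by the origin recognition complex with CDC6 and CDT1. It then fires those origins and copies the DNA in S phase, and it separates the copies in mitosis. E2F factors drive the genes of the first wave at the G1/S boundary, after D-type cyclins with their kinases have released them from the retinoblastoma protein. The genes of the second wave, which include cyclin B, the Polo-like and Aurora kinases and the mitotic kinesins, are switched on in G2, in part by FOXM1 and B-MYB acting with the MuvB complex. Activated macrophages are known to leave the cell cycle, and monocytic cells that mature stop dividing.

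The promoters of both waves carry different short motifs, and 5 are shown as examples from genes named in the results: ORC1 and CDT1 for licensing, and PLK1, CDC20 and KIF11 for mitosis. Each sequence is the 250 bases before the transcription start in RefSeq (assembly GRCh38.p14), written 5′ to 3′ on the strand of the gene. Capitals mark E2F-like letters in ORC1 and CDT1 (the run TTCCCGC, the run TTGGCGC or the run TTCGCGC), the cell-cycle homology region (CHR)-like letters TTTGAA in PLK1, CDC20 and KIF11, and the CCAAT box in all that hold one, each on either strand. The ORC1 promoter is chr1:52404424-52404673, minus strand. The CDT1 promoter is chr16:88803539-88803788, plus strand. The PLK1 promoter is chr16:23678639-23678888, plus strand. The CDC20 promoter is chr1:43358731-43358980, plus strand. The KIF11 promoter is chr10:92592880-92593129, plus strand.
ORC1: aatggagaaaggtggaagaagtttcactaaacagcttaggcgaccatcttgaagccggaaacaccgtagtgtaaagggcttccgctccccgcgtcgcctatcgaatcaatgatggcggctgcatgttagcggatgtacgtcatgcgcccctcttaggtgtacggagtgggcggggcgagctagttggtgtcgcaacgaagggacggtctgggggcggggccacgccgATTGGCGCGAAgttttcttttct
CDT1: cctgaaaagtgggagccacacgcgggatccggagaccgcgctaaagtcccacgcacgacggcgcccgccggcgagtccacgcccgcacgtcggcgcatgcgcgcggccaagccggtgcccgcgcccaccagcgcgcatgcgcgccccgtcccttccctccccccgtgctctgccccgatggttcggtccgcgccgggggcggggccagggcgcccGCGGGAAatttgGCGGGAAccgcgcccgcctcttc
PLK1: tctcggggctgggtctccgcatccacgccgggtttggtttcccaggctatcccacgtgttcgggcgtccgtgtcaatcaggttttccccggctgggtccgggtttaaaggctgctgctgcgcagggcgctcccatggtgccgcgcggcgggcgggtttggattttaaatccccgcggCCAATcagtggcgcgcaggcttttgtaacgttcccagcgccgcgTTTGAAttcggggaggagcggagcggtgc
CDC20: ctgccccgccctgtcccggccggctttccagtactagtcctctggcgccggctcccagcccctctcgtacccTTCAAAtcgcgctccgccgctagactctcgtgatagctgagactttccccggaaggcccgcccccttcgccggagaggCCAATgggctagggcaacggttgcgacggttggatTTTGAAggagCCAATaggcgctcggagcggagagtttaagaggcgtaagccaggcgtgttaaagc
KIF11: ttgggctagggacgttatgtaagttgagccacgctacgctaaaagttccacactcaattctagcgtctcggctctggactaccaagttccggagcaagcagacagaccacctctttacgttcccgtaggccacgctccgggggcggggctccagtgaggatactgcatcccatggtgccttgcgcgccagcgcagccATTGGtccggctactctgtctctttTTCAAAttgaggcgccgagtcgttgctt

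In ORC1 the letters TTGGCGC began 22 bases before the start and overlapped TTCGCGC and a CCAAT box on the other strand. In CDT1 TTCCCGC was found 2 times, both on the strand opposite the gene. PLK1 held TTTGAA at base -29 and CCAAT at base -73, KIF11 held them at bases -28 and -53, and CDC20 held 2 of each. The RefSeq table gave a promoter for 38 of the 50 genes, 54 promoters in all, each with the 250 bases before and 50 after the start. E2F-like letters (any of the 3 runs, both strands) stood in 10 of 15 licensing and fork promoters (66.7%) and in 4 of 21 promoters of the G2 and mitosis genes (19.0%), against 3872 of all 35116 promoters. CHR-like letters (TTTGAA or TTCGAA, both strands) went the other way, with 1 of 15 licensing promoters (6.67%) and 12 of 21 G2 and mitosis promoters (57.1%), against 16.4% of all promoters. A CCAAT box was in 80.0% and 81.0% of them, against 34.6% of all promoters, and 52.4% of the G2 and mitosis promoters held both CCAAT and CHR-like letters, against 6.38% of all. The mitotic promoters printed above do not stand for all of that role. KIF20A held CCAAT but no CHR-like letters, and CDK1, which rose with LPS, held CHR-like letters. These are matches of letters, not sites of binding, and several genes have more than 1 promoter in the count. A link of the letters to the responses was not tested.

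Libraries held 16171161 to 23929138 counts, with a median of 19639071. Of 10 monocytic markers 8 (CD14, CD33, ITGAM, LYZ, CSF1R, SPI1, CTSG and ELANE) were above a level of 1 (in the unit defined in the next paragraph) in every library, and the sum of the 10 ran from 1480 to 3080, while 13 of 15 markers of other cell types stayed under 1 in every library and their sum was 1.23 to 2.83. The hairpin targets were lower where the labels say so, with 1 exception. NR4A2 was lower in shNR4A2 than in shNT cells by -0.91 ± 0.23 (SE) log2 units at 5% CO2 and -1.52 ± 0.20 with LPS, and by -1.02 ± 0.29 and -1.67 ± 0.09 at 10% CO2, all called. NR4A3 was lower in shNR4A3 cells by -2.47 ± 0.53 and -0.82 ± 0.08 at 5% CO2, without and with LPS, and by -1.11 ± 0.13 at 10% CO2 with LPS, but its difference of -0.39 ± 0.49 at 10% CO2 without LPS did not pass the test (adjusted p = 0.736). Without LPS the NR4A3 counts per library were low: 1 to 5 in shNR4A3 and 17 to 21 in shNT cells at 5% CO2, and 6 to 8 and 6 to 14 at 10% CO2. NR4A2 was called lower in the shNR4A3 line as well at 10% CO2 with LPS (-0.32 ± 0.08), while its difference of -0.37 ± 0.16 at 5% CO2 with LPS did not pass the test (adjusted p = 0.223). In the shNR4A2 line NR4A3 was called higher at 10% CO2 with LPS (0.57 ± 0.11).

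Levels are given as CPM (counts normalized to the library total) per kilobase of exon, with the total of each library scaled by the trimmed mean of M values (TMM), so that genes can be compared with each other. In every group of 3 values that follows, they are those of replicates 1, 2 and 3. Differences are log2 fold changes with their standard error (SE) from edgeR's quasi-likelihood test, and a gene is called at an adjusted p under 0.05 over the 17720 genes tested. Of the 50 genes 49 passed the filter on low counts. CCND2, the cyclin D2 gene, did not: its level was between 0 and 0.0765 in the 36 libraries, and it entered no test. The p-values measure the spread between the 3 libraries of a condition.

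The genes that were tested were well expressed. The median level over the 36 libraries was highest for CDC20, the activator of the anaphase-promoting complex, at 191, followed by MCM3, a helicase subunit, at 116 and CDKN2C, a CDK4 and CDK6 inhibitor, at 112. E2F2, an E2F activator, had the lowest at 4.38. Cyclin D1 (CCND1) varied most between conditions, from a mean of 2.47 in shNT cells at 5% CO2 to 16.3 in shNR4A2 cells at 10% CO2 with LPS, a 6.6-fold range. For MCM2 and CDKN2C the highest condition was only 1.22-fold and 1.17-fold above the lowest.

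**Figure D1:**
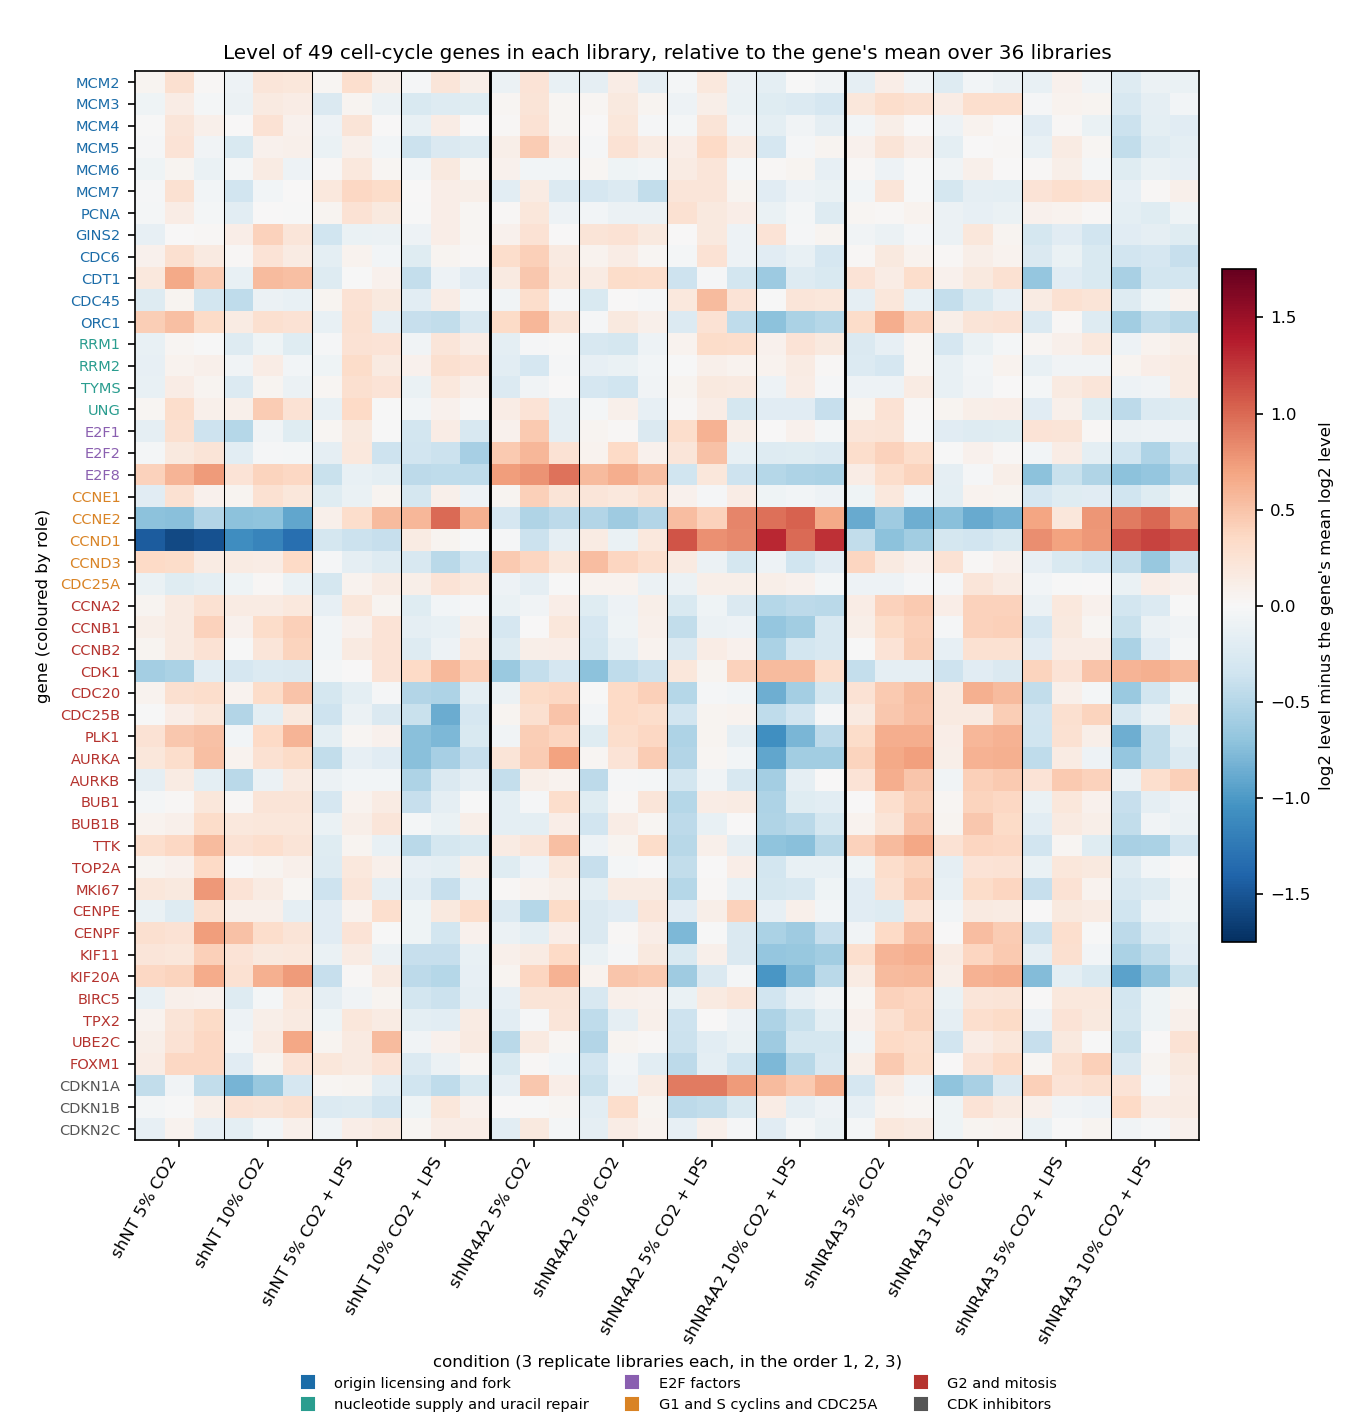
Log2 level of each of the 49 tested genes (lines of the map, ordered and coloured by role) in each of the 36 libraries (columns, 3 per condition), minus the gene's mean log2 level over all libraries, on a colour scale from blue (lower) to red (higher). CCND1 has the widest range, from a condition mean of 2.47 to 16.3 CPM per kilobase, and most G2 and mitosis genes are lower in the LPS columns at 10% CO2.

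LPS was compared with the basal state in each line at each CO2 level, which asks how activation of the monocytes changes the division genes. After 2 h of LPS, 3 genes were higher in all 6 comparisons (CCND1, CCNE2 and CDK1) and 5 were lower in all 6 (E2F8, AURKA, KIF20A, CDT1 and CCND3). Of all genes tested, 6.87% were called higher in all 6 and 6.09% lower in all 6. At 10% CO2, 10 to 13 of the 22 mitotic genes and 3 to 6 of the 12 licensing and fork genes were called lower, which is 45.5% to 59.1% and 25% to 50% of them, against 16.1% to 21.5% of all genes. At 5% CO2 the lower shares in shNT cells were 27.3% of the mitotic and 16.7% of the licensing and fork genes, against 11.6% of all genes. In shNR4A2 cells they were 9.09% and 8.33%, against 9.26%, and in shNR4A3 cells 27.3% and 25%, against 13.4%. The difference between both roles was not tested. In bulk RNA a lower mitotic level may come from fewer cells in G2 and mitosis or from less RNA per such cell, and these cannot be told apart. In total 33 of the 49 genes were called in at least 1 of the 6 comparisons and 16 in none.

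In shNT cells at 5% CO2, LPS left 4 of the 49 genes higher and 10 lower, with 22.9% of all genes called (11.2% higher and 11.6% lower). In shNR4A2 cells at 5% CO2 the counts were 4 higher and 6 lower, with 18.2% of all genes called (8.91% and 9.26%), and in shNR4A3 cells 4 higher and 12 lower, with 25.3% (11.9% and 13.4%). At 10% CO2 they were 4 higher and 16 lower in shNT cells (31.2% of all genes called, 15.1% higher and 16.1% lower), 5 higher and 19 lower in shNR4A2 cells (35% of all genes, 16.5% and 18.5%) and 5 higher and 23 lower in shNR4A3 cells (42.1% of all genes, 20.6% and 21.5%). The called genes thus made up 20.4% to 57.1% of the 49, against 18.2% to 42.1% of all genes. Lower calls made up 12.2% to 46.9% of the 49 genes and 9.26% to 21.5% of all genes, and higher calls 8.16% to 10.2% against 8.91% to 20.6%. The median log2 fold change of the 49 was -0.08, -0.13 and -0.20 at 5% CO2 and -0.22, -0.23 and -0.23 at 10% CO2 (shNT, shNR4A2 and shNR4A3), while that of all genes lay between -0.01 and 0.00.

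These counts depended on how libraries were scaled and paired. Scaling by library size alone moved the median of all genes with LPS by -0.18 to -0.25, and the higher and lower calls became 2 and 19, 4 and 17, and 3 and 24 at 5% CO2, and 3 and 32, 4 and 33, and 4 and 36 at 10% CO2. Pairing libraries by replicate number gave 17 calls in shNR4A2 and 28 in shNR4A3 cells at 5% CO2 and 31 in shNT cells at 10% CO2. The shares of all genes given above are those of the unpaired fits with TMM scaling. The 10 calls in shNR4A2 cells at 5% CO2 fell to 6 without LPS replicate 1 or without basal replicate 2. With 1 library of that comparison left out, 2210 to 3449 of all genes were called.

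**Figure D2:**
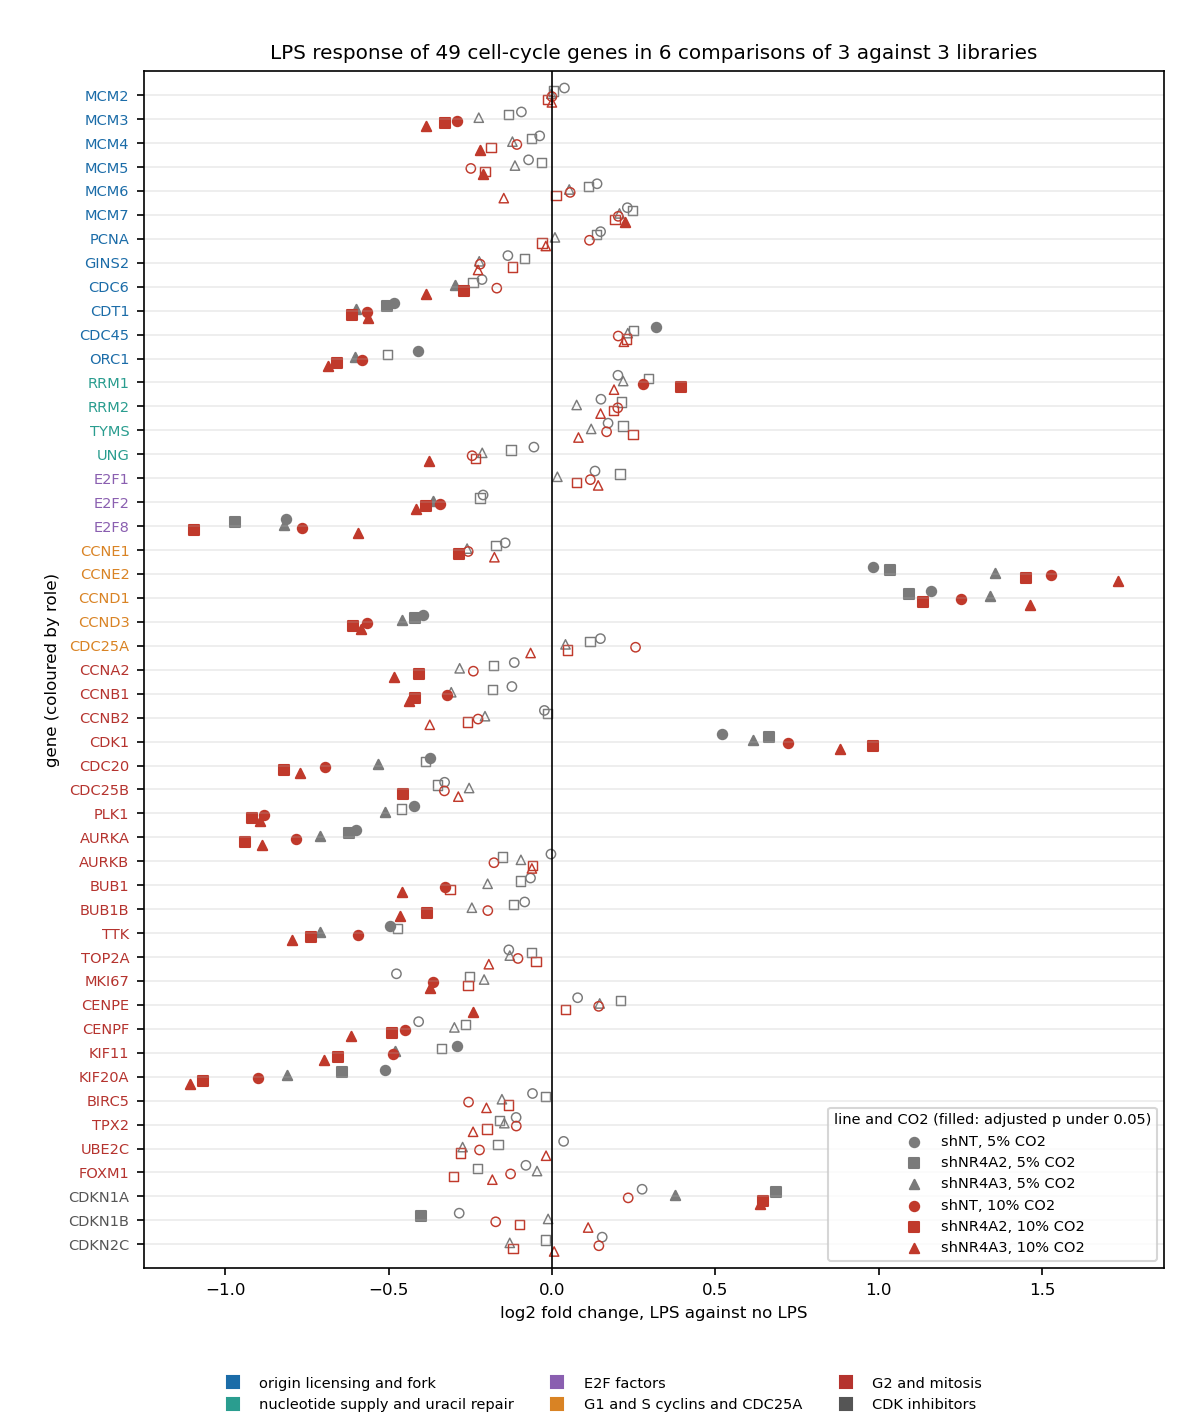
Log2 fold change with LPS of each tested gene in the 6 comparisons (3 lines at 5% and 10% CO2), ordered by role, with filled marks for called genes and open marks for the others, grey for 5% and red for 10% CO2, and the shape giving the line. CCND1, CCNE2 and CDK1 lie to the right of 0 in all 6, between 0.52 and 1.73, and most G2 and mitosis genes lie to the left.

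Cyclin D1 is the cyclin that couples growth signals to CDK4 and CDK6. Its gene CCND1 (ENSG00000110092) lies on chromosome 11 at 69641087 to 69654474 (GRCh38). In shNT cells at 5% CO2 it was at 2.58, 2.37 and 2.45 without and 5.69, 5.45 and 5.33 with LPS, and at 10% CO2 at 3.33, 3.18 and 2.83 and 7.77, 7.33 and 7.04. The shNR4A2 line held it at 6.96, 5.43 and 6.32 and, with LPS, 15.2, 12.3 and 12.6 at 5% CO2, and at 7.81, 6.51 and 8.03 and 17.7, 14.1 and 17.1 at 10% CO2. Levels in shNR4A3 cells were 5.23, 4.28 and 4.64 and 12.4, 11.5 and 12 at 5% CO2, and 5.7, 5.62 and 5.89 and 15.3, 16.1 and 15.5 at 10% CO2. LPS more than doubled CCND1 in every line, with no overlap between basal and LPS libraries, and the basal libraries of both knockdown lines were near the LPS-treated shNT libraries. The log2 fold changes with LPS were between 1.09 and 1.46 (shNT at 5% CO2 1.16 ± 0.11, adjusted p = 6.47e-07).

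Cyclin E2 (CCNE2, ENSG00000175305) activates CDK2 at the start of S phase. At 5% CO2 CCNE2 rose with LPS from 5.7, 5.65 and 6.58 to 9.94, 11.6 and 13.8 in shNT cells, from 7.65, 6.53 and 6.83 to 13.7, 12.4 and 17 in shNR4A2 cells and from 5.07, 6.08 and 5.21 to 15.1, 10.8 and 16.1 in shNR4A3 cells. At 10% CO2 it rose from 5.71, 5.78 and 5.02 to 14.1, 18.7 and 14.5, from 6.59, 6.12 and 6.56 to 18.3, 19.2 and 14.9 and from 5.66, 5.07 and 5.36 to 17.7, 18.9 and 16.1 in the same order of lines. Every LPS library was above every basal library. The log2 fold change was 0.98 ± 0.12, 1.03 ± 0.14 and 1.36 ± 0.15 at 5% CO2 and 1.53 ± 0.12, 1.45 ± 0.11 and 1.73 ± 0.09 at 10% CO2. Exons of INTS8 on the opposite strand cover 37.0% of the exonic bases of CCNE2, and the strand setting of the counts is not given. INTS8 itself changed with LPS by -0.02 to 0.24 and was called in 1 of the 6 comparisons (0.18 in shNR4A3 cells at 10% CO2). CCNE1, the cyclin E1 gene with the same partner, had negative fold changes of -0.29 to -0.14 and was called in shNR4A2 cells at 10% CO2 only among the 6.

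CDK1 (ENSG00000170312, chromosome 10, 60778331 to 60794852) is the kinase that drives entry into mitosis, and it was the 1 gene of the G2 and mitosis role that rose. Its level in shNT cells went from 19.5, 20.2 and 25.9 to 28.8, 29.8 and 34.9 at 5% CO2 and from 24.2, 25 and 24.8 to 37.7, 43.9 and 39.6 at 10% CO2. In shNR4A2 cells it went from 18.8, 22.1 and 24.2 to 34, 30.5 and 38.9 and from 18, 21.8 and 22.8 to 43.2, 43.4 and 36.7, and in shNR4A3 cells from 22.1, 26.5 and 26.5 to 38.7, 34.8 and 41.6 and from 23, 25.8 and 24.9 to 44.8, 45.5 and 43.8. The groups did not overlap in any of the 6 comparisons. Log2 fold changes ran from 0.52 ± 0.12 in shNT cells at 5% CO2 to 0.98 ± 0.11 in shNR4A2 cells at 10% CO2. Under scaling by library size alone the first of these was 0.34 with an adjusted p of 0.0542. The cyclins that bind CDK1 did not follow it: CCNB1 had fold changes of -0.44 to -0.12 and was called lower in the 3 comparisons at 10% CO2, and CCNA2 was called lower in both knockdown lines at 10% CO2.

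**Figure D3:**
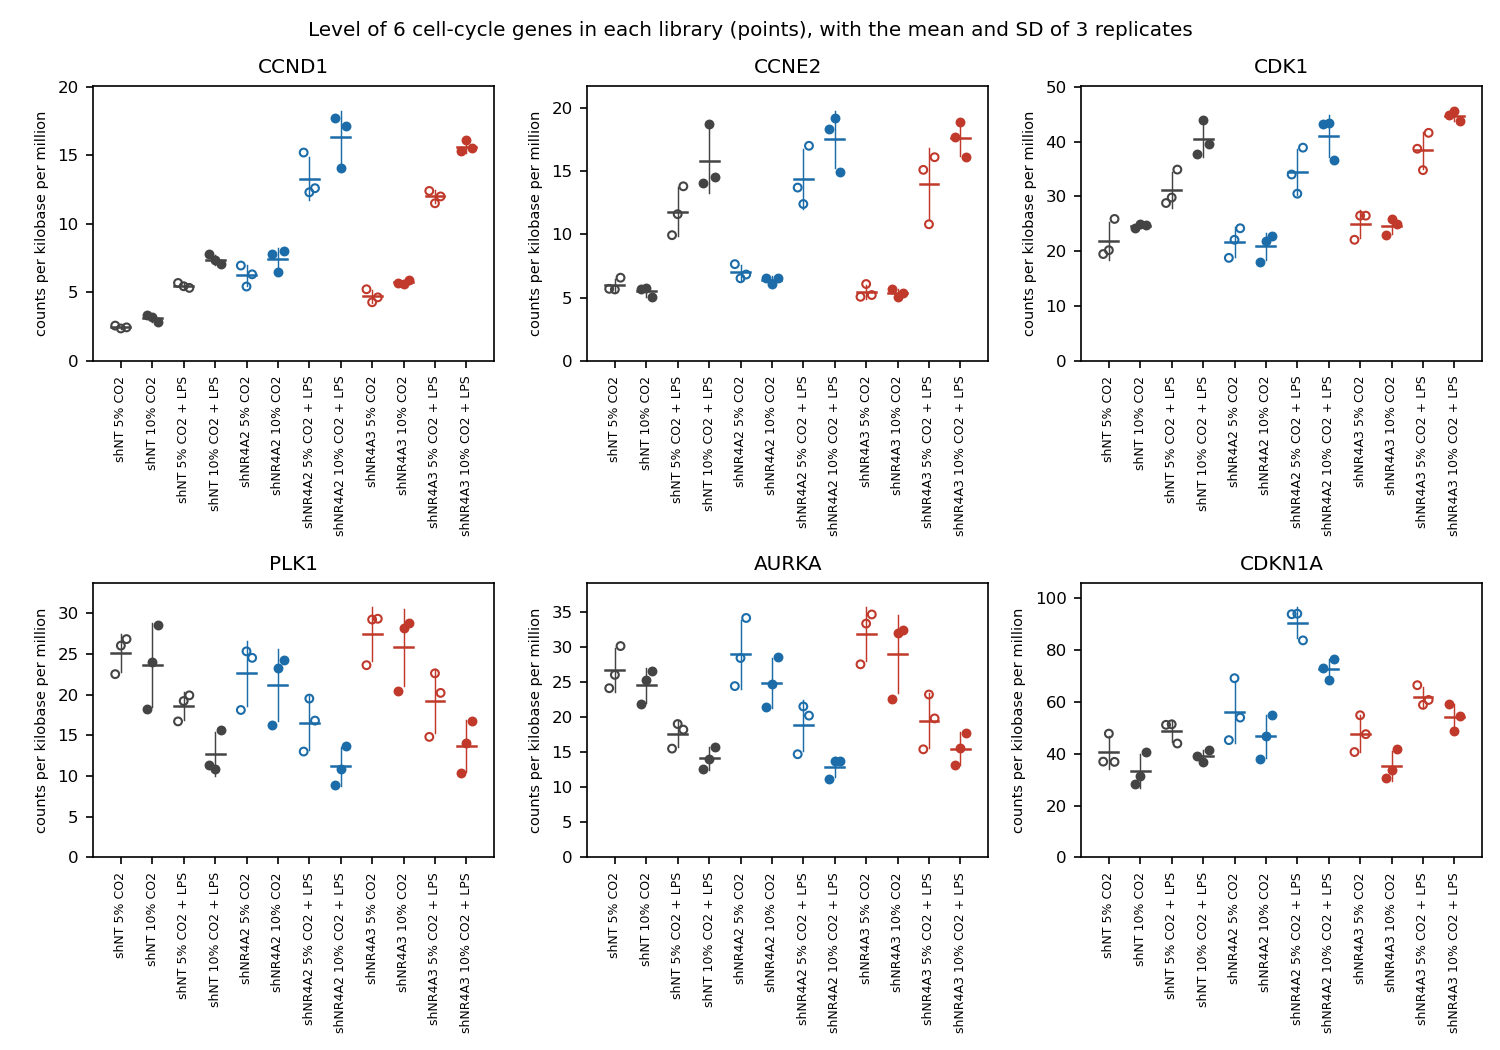
Level of 6 of the named genes in each of the 36 libraries (CPM per kilobase, linear axis from 0), by condition, with open points at 5% and filled points at 10% CO2, a horizontal bar for the mean and a vertical bar for the SD of 3 libraries. CCND1 is at 2.37 to 2.58 in basal shNT cells at 5% CO2 and at 14.1 to 17.7 in shNR4A2 cells at 10% CO2 with LPS.

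Among the E2F factors the gene that fell in all comparisons was E2F8 (ENSG00000129173, chromosome 11, 19224063 to 19241620), an E2F that represses G1/S genes. In shNT cells its level fell from 8.52, 9.72 and 10.8 to 4.88, 5.87 and 5.7 at 5% CO2 and from 7.56, 8.38 and 8.27 to 4.67, 4.73 and 4.73 at 10% CO2. The shNR4A2 values were 10.7, 11.1 and 12.4 before and 5.04, 7.38 and 5.01 after LPS at 5% CO2, and 9.41, 10 and 9.25 and 4.55, 4.4 and 4.39 at 10% CO2. For shNR4A3 they were 7.02, 7.93 and 8.41 and 3.92, 4.88 and 4.44, and 5.73, 6.34 and 6.88 and 3.9, 4 and 4.51. No basal library overlapped an LPS library of its line and CO2 level. The log2 fold change lay between -1.10 ± 0.10 (shNR4A2, 10% CO2, adjusted p = 6.58e-07) and -0.59 ± 0.10 (shNR4A3, 10% CO2). E2F2, an activator, was called lower in 4 of 6, all but shNT and shNR4A2 at 5% CO2, by -0.34 to -0.42. E2F1, the E2F best known for driving S phase entry, was called in none of the 6.

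Of the licensing and fork genes CDT1 was the 1 called in all 6 comparisons. CDT1 (ENSG00000167513, chromosome 16, 88803213 to 88809258), which brings the MCM helicase to origins, went in shNT cells from 27, 37.3 and 32.3 to 20.2, 23.5 and 24.9 at 5% CO2 and from 21.6, 34.8 and 34.1 to 17.8, 22.3 and 20.6 at 10% CO2. The 10% groups overlapped, since basal replicate 1 was below LPS replicate 2, and the call there was lost without basal replicate 2 (adjusted p = 0.0553) or 3 (0.135). In shNR4A2 cells CDT1 went from 26.5, 32.9 and 26.8 to 18.4, 23.4 and 19 and from 26.2, 29.6 and 29.3 to 15.3, 20.3 and 19.7, and in shNR4A3 cells from 28, 25.9 and 29.3 to 14.8, 20.6 and 19.6 and from 25, 26.7 and 28.6 to 15.9, 18.9 and 18.9. Each of these 4 changes kept its groups apart. The 6 log2 fold changes were alike, between -0.61 ± 0.11 and -0.48 ± 0.12. In shNR4A2 cells at 5% CO2 the call was lost without LPS replicate 1 or 3 or basal replicate 2 (adjusted p = 0.0992, 0.0718 and 0.064).

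ORC1, the largest subunit of the origin recognition complex, was called lower in 5 of 6 comparisons, by -0.41 to -0.69, and its value of -0.50 ± 0.17 in shNR4A2 cells at 5% CO2 missed the threshold (adjusted p = 0.0516). CDC6, which loads the helicase with CDT1, was called lower in 3 of 6 (-0.27 to -0.39). Of the helicase subunits, MCM3 was called lower in the 3 comparisons at 10% CO2 (-0.29, -0.33 and -0.38), MCM4 and MCM5 in shNR4A3 cells at 10% CO2, and MCM2 and MCM6 in none. MCM7 went the other way: its fold changes were all positive (0.19 to 0.25), but it was called once, in shNR4A3 cells at 10% CO2 (0.22 ± 0.07), where scaling by library size alone reversed it (-0.03, adjusted p = 0.801). CDC45, which joins the helicase at the fork, was called higher in shNT cells at 5% CO2 (0.32 ± 0.11) although its libraries overlapped, and PCNA, the sliding clamp, in none. Of the 12 licensing and fork genes, the numbers called higher and lower were 1 and 2 (shNT), 0 and 1 (shNR4A2) and 0 and 3 (shNR4A3) at 5% CO2, and 0 and 3, 0 and 4, and 1 and 6 at 10% CO2. Among the genes of nucleotide supply RRM1, the large subunit of ribonucleotide reductase, was called higher in shNT and shNR4A2 cells at 10% CO2 (0.28 and 0.39), while RRM2 and TYMS (thymidylate synthase) were called nowhere.

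The Aurora kinase A gene AURKA (ENSG00000087586, chromosome 20, 56369389 to 56392337) builds the spindle poles. With LPS it fell in shNT cells from 24.1, 26 and 30.1 to 15.5, 19 and 18.2 at 5% CO2 and from 21.8, 25.3 and 26.5 to 12.6, 14 and 15.8 at 10% CO2. In shNR4A2 cells the fall was from 24.4, 28.4 and 34.1 to 14.7, 21.5 and 20.2 and from 21.4, 24.7 and 28.5 to 11.2, 13.8 and 13.7, and in shNR4A3 cells from 27.5, 33.3 and 34.6 to 15.4, 23.2 and 19.8 and from 22.6, 31.9 and 32.4 to 13.1, 15.6 and 17.7. Basal and LPS libraries stayed apart in all 6, with log2 fold changes of -0.60, -0.62 and -0.71 at 5% CO2 and -0.78, -0.94 and -0.89 at 10% CO2. The call in shNR4A2 cells at 5% CO2 was lost without LPS replicate 1 (adjusted p = 0.0827) or basal replicate 3 (0.0781).

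KIF20A (ENSG00000112984, chromosome 5, 138178719 to 138187715), a kinesin of the central spindle that is needed for cytokinesis, fell the most of the 22 mitotic genes in the 3 comparisons at 10% CO2. Its shNT levels were 11.3, 11.5 and 13.8 and, with LPS, 6.69, 8.96 and 9.85 at 5% CO2, and 10.6, 13.6 and 14.8 and 6.44, 6.24 and 8.01 at 10% CO2. Its shNR4A2 levels were 9.13, 11.4 and 13.4 and 5.71, 7.43 and 8.61, and 9.24, 12.3 and 12.1 and 4.35, 5.22 and 6.37. Its shNR4A3 levels were 9.72, 12.9 and 13.1 and 5.23, 7.81 and 7.3, and 9.47, 13.5 and 13.7 and 4.6, 5.48 and 6.73. In all 3 lines the lowest library was at 10% CO2 with LPS, and no basal group overlapped its LPS group. The log2 fold changes were -0.51 ± 0.14, -0.64 ± 0.18 and -0.81 ± 0.16 at 5% CO2 and -0.90 ± 0.14, -1.07 ± 0.15 and -1.11 ± 0.17 at 10% CO2. In shNR4A2 cells at 5% CO2 the call was lost without LPS replicate 1 (adjusted p = 0.103) or basal replicate 2 or 3 (0.067 and 0.0961).

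The last gene lower in all 6 was CCND3 (ENSG00000112576, chromosome 6, 41934933 to 42050357), the D-type cyclin with the highest level here. In shNT cells it moved from 82, 80.1 and 70.9 to 63.3, 57.5 and 55.3 at 5% CO2 and from 71.4, 70.8 and 81.9 to 53.2, 46.5 and 50.8 at 10% CO2. In shNR4A2 cells it moved from 88.7, 83.4 and 73.6 to 72.1, 59.8 and 52.1 and from 93.7, 83.6 and 79 to 60.5, 50.4 and 56, and in shNR4A3 cells from 83.4, 71.9 and 67.7 to 58.2, 53.5 and 50.8 and from 76.5, 65.5 and 67.8 to 47.6, 40.5 and 50. The 2 D-type cyclins that passed the filter thus went in opposite directions. CCND3 fell by log2 fold changes of -0.40 to -0.61, and in shNR4A2 cells at 5% CO2 its call (adjusted p = 0.045) was lost without LPS replicate 2 (0.108) or 3 (0.238) or basal replicate 1 (0.152) or 2 (0.105).

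Of the 22 genes of G2 and mitosis, the numbers called higher and lower with LPS were 1 and 6 (shNT), 1 and 2 (shNR4A2) and 1 and 6 (shNR4A3) at 5% CO2, and 1 and 10, 1 and 11, and 1 and 13 at 10% CO2. Their median log2 fold changes were -0.12, -0.18 and -0.25 at 5% CO2 and -0.29, -0.35 and -0.41 at 10% CO2. TTK, a kinase of the spindle checkpoint, KIF11, the kinesin that separates the spindle poles, CDC20 and PLK1, the Polo-like kinase, were each called lower in all comparisons but that of shNR4A2 cells at 5% CO2. Their fold changes at 10% CO2 were -0.60 to -0.80 for TTK, -0.49 to -0.70 for KIF11, -0.69 to -0.82 for CDC20 and -0.88 to -0.92 for PLK1. Several genes of the same role were called in none of the 6: AURKB (the kinase of the chromosomal passenger complex), CCNB2, TOP2A, BIRC5, TPX2, UBE2C and FOXM1. The kinetochore motor CENPE had positive fold changes in 5 of 6 and was called lower in shNR4A3 cells at 10% CO2 (-0.24 ± 0.09).

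The sum of the 22 levels in a library showed the same direction. In shNT cells it was 676, 738 and 819 at 5% CO2 and 566, 662 and 682 with LPS, and at 10% CO2 it was 665, 743 and 806 and, with LPS, 530, 539 and 637. In shNR4A2 cells it went from 585, 711 and 773 to 495, 647 and 638 at 5% CO2 and from 562, 700 and 743 to 444, 498 and 548 at 10% CO2. In shNR4A3 cells it went from 700, 845 and 895 to 554, 730 and 685 and from 653, 865 and 858 to 493, 581 and 647. Replicate 1 had the lowest sum of the 3 in all 12 conditions. Basal and LPS sums overlapped in all 3 lines at 5% CO2 and were apart in all 3 at 10% CO2. The LPS response at 10% against that at 5% CO2 was tested gene by gene over the 3 lines. It called 0 of the 22 genes, with 1.99% of all genes called. CDC20, which had the highest level, weighs most in the sum. The sum over the 12 licensing and fork genes was between 460 and 648 in the 36 libraries. With LPS at 10% CO2 it went from 532, 574 and 528 to 486, 519 and 493 in shNR4A2 cells and from 520, 570 and 566 to 460, 502 and 519 in shNR4A3 cells, with no overlap, and it overlapped in the other comparisons.

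**Figure D4:**
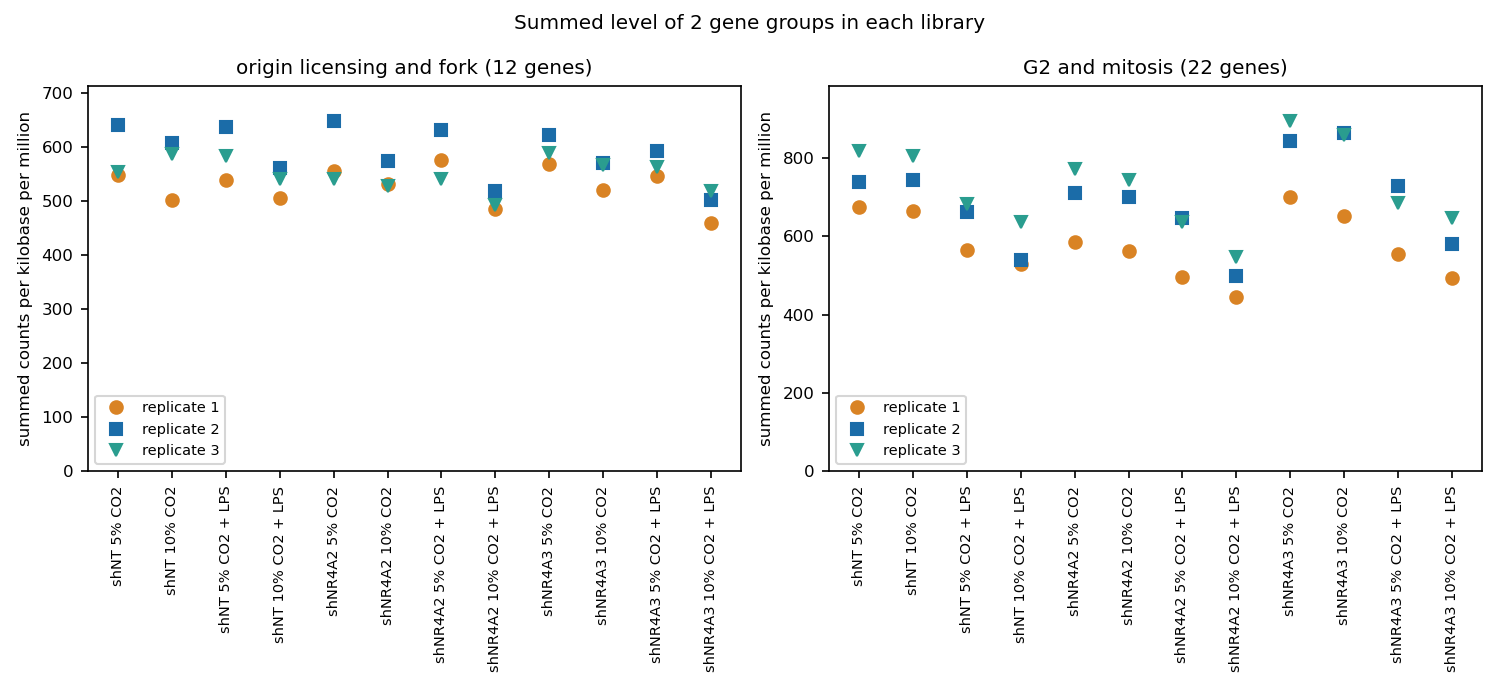
Sum of the levels of the 12 licensing and fork genes and of the 22 G2 and mitosis genes in each library (CPM per kilobase, linear axes from 0), by condition, with the shape and colour of a point giving its replicate number. The G2 and mitosis sum is lowest in replicate 1 in all 12 conditions and reaches its lowest value, 444, in shNR4A2 cells at 10% CO2 with LPS.

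Of the CDK inhibitors, CDKN1A (p21), which stops CDK2 and CDK4 complexes and is a target of p53, was called higher with LPS in shNR4A2 and shNR4A3 cells at both CO2 levels (0.38 to 0.69) and not called in shNT cells (0.28 ± 0.11 and 0.23 ± 0.12). The difference between the lines was tested itself and did not pass: the LPS response of CDKN1A in shNR4A2 cells exceeded that in shNT cells by 0.42 ± 0.15 (adjusted p = 0.538), and that in shNR4A3 cells by 0.25 ± 0.13 (adjusted p = 0.539). No gene of the 49 had an LPS response called different in shNR4A2 from shNT cells, where 0.226% of all genes were called, or in shNR4A3 from shNT cells, where 0.547% were. With edgeR 2 and 6 of the 49 had an unadjusted p under 0.05 in these tests, against 855 and 1856 of the 17720 genes tested. DESeq2 called 0 of the 49 in both. CDKN1B (p27) was called lower in shNR4A2 cells at 5% CO2 only among the 6 (-0.40 ± 0.13), and CDKN2C (p18) in none.

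Of the 10 monocytic markers 1 or 2 were called higher and 1 or 2 lower with LPS in each comparison. SPI1, a myeloid transcription factor, was called higher and CD33, a myeloid surface receptor, lower in all 6 comparisons, by 0.61 and -0.44 in shNT cells at 5% CO2. The sum of the 10 monocytic markers was 1480 to 2900 in basal and 1710 to 3080 in LPS-treated libraries, and the part of these changes in the results above was not tested.

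Other genes of the pathway were counted as well. Of 31 other G1 regulators tested, 8 to 12 were called higher and 5 to 9 lower in each comparison. Of all genes, 8.91% to 20.6% were called higher and 9.26% to 21.5% lower. In shNT cells at 5% CO2 the largest changes among those named were in BTG2 (5.58 ± 0.11), an antiproliferative p53 target, and MYC (-2.73 ± 0.10), the growth-promoting transcription factor. E2F7, the repressor most like E2F8, rose by 2.23 ± 0.10 there, against the fall of E2F8 by -0.81 ± 0.12. BTG1 rose by 1.31, and CCNG2 and LIN54, a subunit of the MuvB complex, fell by log2 fold changes of -1.13 and -0.62.

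Of 59 other mitotic genes tested, 3 to 5 were called higher and 8 to 32 lower, the most (32) in shNR4A3 cells at 10% CO2, where the share of all genes called lower was also the highest of the 6 (21.5%). HJURP, the chaperone that deposits CENP-A at centromeres (-0.95 ± 0.11), CCNF (-0.94 ± 0.11) and CDCA2 (-0.77 ± 0.11) led the lower ones in shNT cells at 5% CO2, and CKAP2L, a spindle protein, the higher ones (0.49 ± 0.10). Of 46 other replication genes, 1 to 4 were called higher and 1 to 14 lower, against 8.91% to 20.6% and 9.26% to 21.5% of all genes. UHRF1, which couples DNA methylation to replication, fell by a log2 fold change of -0.59 ± 0.10 in shNT cells at 5% CO2.

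CO2 was compared at 10% against 5% in each line and state, which asks whether hypercapnia changes division genes within 4 h. Single comparisons found little. Averaged over the 3 lines and both states, 22 of the 49 genes were lower and 5 higher at 10% CO2. These were 44.9% and 10.2% of the 49, against 19.4% and 17% of all genes. The mean changes of the 49 were small, at most 0.33 log2 units in either direction. All 3 E2F factors, 6 of 12 licensing and fork genes and 10 of 22 G2 and mitosis genes were among the lower ones. CCND1 was the gene with the clearest rise.

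In the basal state no gene of the 49 was called by edgeR in shNT cells (0.615% of all genes called, 0.327% higher and 0.288% lower), shNR4A2 cells (0.0113%, with 0.00564% higher and 0.00564% lower) or shNR4A3 cells (1.13%, with 0.559% higher and 0.57% lower). Unadjusted p-values under 0.05 were found for 4, 1 and 11 of the 49, against 2645, 1430 and 2956 of the 17720 genes tested. DESeq2 called 0, 0 and 2 of the 49, and its share of all genes is not given here. With LPS, 2 genes were called higher and 2 lower in shNT cells, where 8.19% of all genes were called (4.47% higher and 3.72% lower). None was called in shNR4A2 cells (0.198% of all genes, 0.152% higher and 0.0451% lower), and 1 was higher in shNR4A3 cells (2.13%, with 0.931% higher and 1.2% lower). Here 16, 23 and 21 of the 49 had an unadjusted p under 0.05, against 4436, 2897 and 3377 of the 17720 genes. DESeq2 called 9, 2 and 2 of the 49, again without its share of all genes. Single libraries decided these counts, and they moved the count of all genes too. With 1 library left out, 334 to 2148 of all genes were called in shNT cells with LPS. In LPS-treated shNR4A2 and shNR4A3 cells it was 0 to 1122 and 1 to 358, and in basal shNR4A3 cells 0 to 365. The 4 calls in shNT cells became 0 without the 10% CO2 and LPS library of replicate 2, 2 without that of replicate 3 and 1 without the 5% CO2 and LPS library of replicate 1 or 2, and the 1 call in shNR4A3 cells was lost without any one of its 6 libraries. Leaving out the 5% CO2 and LPS library of replicate 3 gave 4 calls in shNR4A2 cells, and in basal shNR4A3 cells 1 call came up without the 10% library of replicate 3 or the 5% library of replicate 1 or 3.

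The 4 genes called in shNT cells with LPS were CCND1 (0.43 ± 0.09, adjusted p = 0.0134), CDK1 (0.38 ± 0.09, adjusted p = 0.0228), PLK1 (-0.55 ± 0.14, adjusted p = 0.0411) and CDKN1A (-0.32 ± 0.08, adjusted p = 0.0311). CCND1 was also the gene called in shNR4A3 cells with LPS (0.39 ± 0.08, adjusted p = 0.0315). Its CO2 effect had a positive sign in all 6 comparisons (0.26 to 0.43), and the 5% and 10% libraries did not overlap in 4 of them. PLK1 with LPS was at 16.7, 19.2 and 19.9 in shNT cells at 5% and 11.3, 10.9 and 15.7 at 10% CO2, at 13, 19.5 and 16.8 and 8.93, 10.8 and 13.7 in shNR4A2 cells, and at 14.8, 22.6 and 20.2 and 10.4, 14 and 16.7 in shNR4A3 cells. The shNT groups stayed apart and those of both knockdown lines overlapped. Without LPS the PLK1 fold changes were -0.08, -0.09 and -0.07, none called.

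Over the 6 comparisons 23 genes had a negative and 5 a positive sign in every one, against 17.3% and 16.5% of all genes. The average over all lines and states used all 36 libraries and called 5 genes higher and 22 lower (55.1% of the 49), with 36.4% of all genes called, 17% higher and 19.4% lower. The median log2 difference was -0.11 for the 49 genes and 0.00 for all genes. Without the 12 libraries of one replicate number the count was 12 to 28, with 12 (3 higher and 9 lower) when replicate 2 was left out. The count of all genes in these fits was 3155 to 6003.

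**Figure D5:**
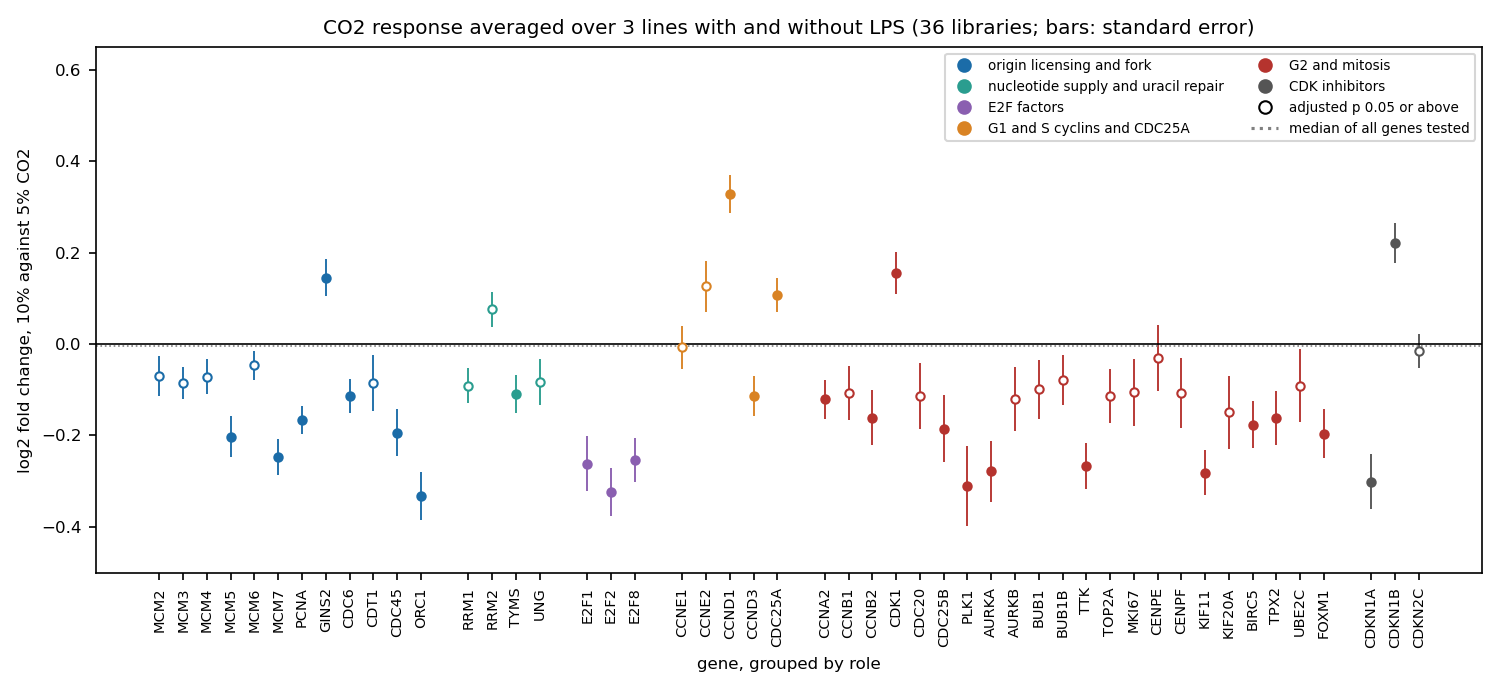
Log2 fold change at 10% against 5% CO2 for each tested gene, averaged over the 3 lines and both states, with its standard error as a bar (36 libraries), grouped and coloured by role, with filled points for called genes and a dotted line at the median of all genes. CCND1 lies at 0.33 and ORC1 and E2F2 at -0.33 and -0.32, and 22 filled points lie under 0 against 5 above.

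ORC1, the subunit of the origin recognition complex, was lower on average by a log2 difference of -0.33 ± 0.05 (adjusted p = 6.79e-06), with a negative sign in 6 of 6 comparisons. Its basal levels at 5% and then 10% CO2 were 22.8, 24.5 and 21.4 against 18.7, 20.6 and 20.2 in shNT cells, 21.5, 25.5 and 19.8 against 16.8, 19.1 and 18.1 in shNR4A2 cells and 21.2, 26.3 and 22.6 against 18.2, 19.9 and 20.3 in shNR4A3 cells. With LPS they were 15.5, 20.5 and 15.3 against 12.9, 12.6 and 14, 14.4, 20.3 and 12.5 against 10.3, 11.6 and 12 and 14.4, 17.3 and 14.5 against 11.1, 12.6 and 12.1. The 5% libraries lay above the 10% libraries of the same line and state in all 6 comparisons.

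E2F2, an activating E2F, was lower by -0.32 ± 0.05 (adjusted p = 1.14e-05). In the basal state its levels were 4.31, 4.98 and 5.18 at 5% and 3.9, 4.37 and 4.3 at 10% CO2 in shNT cells, 6.07, 6.59 and 5.27 and 4.62, 5.62 and 4.67 in shNR4A2 cells, and 5.44, 5.84 and 5.48 and 4.39, 4.65 and 4.47 in shNR4A3 cells. With LPS they were 3.95, 5.04 and 3.45 and 3.49, 3.41 and 2.96, 5.11, 6.28 and 4.03 and 3.79, 3.8 and 3.74, and 4.28, 4.82 and 3.93 and 3.46, 3.03 and 3.51. Groups touched or overlapped in basal shNT and shNR4A2 cells and in shNT cells with LPS, and stayed apart in the rest. E2F1 (-0.26 ± 0.06) and E2F8 (-0.25 ± 0.05) were lower too.

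MCM7, a subunit of the helicase, was lower by -0.25 ± 0.04 (adjusted p = 1.17e-05). Its levels in basal cells at 5% and 10% CO2 were 97.8, 119 and 95.7 and 78.4, 96.1 and 99.2 (shNT), 87.4, 109 and 84 and 81.1, 84.3 and 73.2 (shNR4A2), and 96, 115 and 98.4 and 80.1, 88.7 and 88.1 (shNR4A3). With LPS they were 113, 128 and 124 and 99.3, 107 and 106, 115, 115 and 102 and 86.5, 93.2 and 91.4, and 117, 122 and 118 and 89.5, 101 and 105. The LPS-treated groups were apart in all 3 lines, and of the basal groups those of shNR4A3 cells. PCNA, the sliding clamp, differed by -0.17 ± 0.03. It was at 71, 79.6 and 71.1 and 64.1, 73 and 72.5 in basal shNT cells, 73.5, 83.5 and 68.4 and 70.4, 67.9 and 68.1 in basal shNR4A2 cells and 74.9, 73.9 and 76.1 and 68, 65.9 and 67.3 in basal shNR4A3 cells. With LPS it was at 75.2, 87.1 and 82.1 and 72.3, 78.9 and 74.2, 87.2, 82.2 and 78.7 and 67.4, 71 and 62.4, and 77, 75.7 and 73.8 and 64.7, 62.7 and 68.8. Every 10% library was below every 5% library in both knockdown lines with LPS and in basal shNR4A3 cells. The other licensing and fork genes called lower were MCM5, CDC6 and CDC45, and GINS2, a subunit of the GINS complex of the fork, was called higher (0.15 ± 0.04).

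KIF11, the spindle kinesin, was the mitotic gene with the smallest adjusted p (-0.28 ± 0.05, adjusted p = 3.11e-05). Basal levels at 5% and 10% CO2 were 20.7, 20.6 and 24 and 21.1, 20.1 and 20.3 in shNT, 19.1, 19.9 and 22.8 and 16.5, 17.6 and 20.2 in shNR4A2 and 22, 27.2 and 27.9 and 19.8, 23.2 and 24.7 in shNR4A3 cells, and all 3 pairs of groups overlapped. With LPS they were 16.5, 19.9 and 16.7 and 13.5, 13.5 and 16.4, 14.9, 19.1 and 15 and 11.2, 11.3 and 11.8, and 16.1, 21.8 and 17.3 and 12.2, 13.3 and 15.6, with no overlap in any line. PLK1 (-0.31 ± 0.09), AURKA (-0.28 ± 0.07), TTK (-0.27 ± 0.05) and FOXM1 (-0.20 ± 0.05), the transcription factor of the second wave, were lower as well, and CDK1 was higher (0.16 ± 0.05). Without replicate 2 the averages of PLK1, AURKA, FOXM1 and CDK1 were no longer called (adjusted p = 0.245, 0.102, 0.134 and 0.289). Among the inhibitors CDKN1A was lower (-0.30 ± 0.06) and CDKN1B higher (0.22 ± 0.04), and the CDKN1A call was lost without replicate 2 (adjusted p = 0.0804).

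Whether the CO2 effect differed between states or lines was tested as well. With LPS against basal 1 of the 49 genes differed, with 1.99% of all genes called: the CO2 effect on CCNE2 was higher with LPS by 0.43 ± 0.11 (adjusted p = 0.0306). CCNE2 was at 5.7, 5.65 and 6.58 and 5.71, 5.78 and 5.02 in basal shNT cells at 5% and 10% CO2 and at 9.94, 11.6 and 13.8 and 14.1, 18.7 and 14.5 with LPS. By the levels given with its LPS response, the CO2 groups of LPS-treated cells were apart in shNT cells, met at 16.1 in shNR4A3 cells and overlapped in shNR4A2 cells, the basal groups overlapped in all 3 lines, and CCNE2 was called in none of the 6 CO2 comparisons. The call was lost without replicate 1 (0.45, adjusted p = 0.216) or replicate 2 (0.24, adjusted p = 0.628). INTS8, which overlaps CCNE2 on the other strand, had 0.19 in the same test and was not called, but its own average CO2 effect was 0.29 (adjusted p = 2.75e-06). The CO2 effect of no gene was called different between shNR4A2 and shNT or between shNR4A3 and shNT cells, where edgeR called 0% of all genes. Unadjusted p-values under 0.05 were found for 1 and 0 of the 49, against 444 and 452 of the 17720 genes tested. DESeq2 called 0 of the 49 in both.

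The share of counts on mitochondrial genes moved with CO2: it was 1.05% to 2.19% in the libraries at 5% and 1.54% to 4.15% in those at 10% CO2. Its part in the CO2 results was not tested.

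The wider lists were counted for CO2 on average too, where 17% of all genes were higher and 19.4% lower. Of 59 other mitotic genes 2 were higher and 30 lower, of 46 other replication genes 8 were higher and 11 lower, and of 31 other G1 regulators 4 were higher and 13 lower. CENPH (-0.37 ± 0.05), a centromere protein, KIF23 (-0.35 ± 0.06), a kinesin of cytokinesis, and LIG1 (-0.39 ± 0.04), the ligase that seals Okazaki fragments, were among the lower ones. TFDP2, the partner of E2F factors, differed by -0.56 ± 0.05 and RB1, the retinoblastoma gene, by -0.34 ± 0.05. E2F5 (0.47 ± 0.09) and CDK4 (0.20 ± 0.03), the kinase of cyclin D1, were higher.

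Each knockdown line was compared with shNT cells in the 4 matched conditions, which asks whether depletion of the receptor changes division genes. CCND1 was called higher in all 4 comparisons of each line. CDKN1A was called higher in 3 of 4 with shNR4A2 and 2 of 4 with shNR4A3, and AURKB was called higher in 3 of 4 with shNR4A3. All 4 comparisons of a line use the same shNT libraries as those of the other line, so the values of the lines are not independent. Most other genes were not called in these fits, which did not pair libraries by replicate number. Pairing raised the counts in most of these comparisons, as given below for each line. The largest count was in shNR4A2 cells at 10% CO2 with LPS, where 22.4% of the 49 genes and 18.9% of all genes were called.

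In shNR4A2 against shNT cells 1 gene was called higher and 0 lower at 5% CO2 (5.69% of all genes called, 3.22% higher and 2.47% lower) and 2 and 1 with LPS (6.21%, as 3.84% and 2.37%). At 10% CO2 the counts were 2 and 1 (7.95%, as 4.55% and 3.4%) and, with LPS, 2 and 9 (18.9%, as 9.29% and 9.58%). The shares of all genes are those of the unpaired fits. Pairing by replicate number raised the counts to 17, 13 and 24 in the first, the second and the fourth of these comparisons. The 9 genes lower in the last were UNG, a uracil-DNA glycosylase, and 8 of the 22 G2 and mitosis genes: CCNA2, CCNB1, CCNB2, BUB1B, CENPF, KIF11, UBE2C and FOXM1. This count of 11 rested partly on single libraries, with 4 calls without shNT replicate 3 and 7 without shNR4A2 replicate 2. The 3 calls at 10% CO2 became 1 without shNR4A2 replicate 3 or shNT replicate 2, and the 1 call at 5% CO2 became 2 without any one shNR4A2 library. With 1 library left out the count of all genes moved as well. It was 1897 to 3745 at 10% CO2 with LPS, 750 to 1505 at 10% CO2 and 507 to 1221 at 5% CO2.

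CCND1 differed by 1.34 ± 0.13, 1.29 ± 0.11, 1.25 ± 0.13 and 1.14 ± 0.09 in the order of the comparisons above (largest adjusted p 1.27e-04), and no shNR4A2 library overlapped an shNT library of its condition. Exons of LTO1 on the opposite strand cover 10.3% of the CCND1 exons. CDKN1A was at 37, 47.8 and 36.9 in shNT and 45.3, 69.2 and 54 in shNR4A2 cells at 5% CO2, and at 28.3, 31.4 and 40.7 and 38.2, 46.9 and 55 at 10% CO2, with overlapping groups. With LPS it was at 51.2, 51.4 and 44 and 93.9, 94.1 and 83.8 at 5% CO2, and at 39, 36.7 and 41.5 and 73.2, 68.6 and 76.5 at 10% CO2. In both LPS conditions every shNR4A2 library was far above every shNT library, with differences of 0.90 ± 0.10 and 0.89 ± 0.08. At 10% CO2 without LPS the difference of 0.48 ± 0.14 was called (adjusted p = 0.046) but not without shNR4A2 replicate 2 or 3 or shNT replicate 1 or 2 (adjusted p = 0.0734, 0.26, 0.151 and 0.185).

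FOXM1, the activator of the second wave, was at 11.3, 13.2 and 13.2 in shNT and 8.58, 10.4 and 9.96 in shNR4A2 cells at 5% CO2, and at 8.99, 10.6 and 12.1 and 8.13, 9.97 and 9.02 at 10% CO2. With LPS the levels were 11.8, 11.5 and 12.1 and 7.5, 9.18 and 8.1 at 5% CO2, and 8.76, 9.58 and 10.5 and 5.99, 7.36 and 8.49 at 10% CO2. The groups overlapped in basal cells at 10% CO2 only. The difference was called with LPS, at -0.51 ± 0.10 and -0.40 ± 0.12, and lost the call in the first without shNR4A2 replicate 1 (adjusted p = 0.0559) or shNT replicate 1, 2 or 3 (0.0575, 0.0546 and 0.071), and in the second without shNR4A2 replicate 1 or 2 (0.0656 and 0.086) or shNT replicate 2 or 3 (0.0863 and 0.168). Exons of ITFG2 on the opposite strand cover 15.9% of the FOXM1 exons, and ITFG2 differed by -0.61 (adjusted p = 0.127) at 5% CO2 with LPS.

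CENPF, a kinetochore protein of G2 and mitosis, was lower at 10% CO2 without (-0.40 ± 0.12) and with LPS (-0.43 ± 0.10). Its levels at 10% CO2 were 15.8, 13.7 and 12.9 in shNT and 9.29, 11.2 and 11.9 in shNR4A2 cells, and with LPS 10.5, 8.8 and 11.6 and 7.5, 7.14 and 8.3. Without LPS its call was lost without shNR4A2 replicate 1 or 3 or shNT replicate 1 or 2 (adjusted p = 0.217, 0.0578, 0.138 and 0.128), and with LPS without shNT replicate 3 (0.0681). CCNA2, the cyclin of S phase and G2, was at 29, 32.5 and 33.2 in shNT and 23.7, 24.4 and 24.3 in shNR4A2 cells at 10% CO2 with LPS, apart by -0.39 ± 0.08. BUB1B (-0.42 ± 0.09), a checkpoint kinase, CCNB1 (-0.46 ± 0.11) and UBE2C (-0.47 ± 0.11), which ubiquitinates cyclins at mitotic exit, were lower in the same condition. The CCNB1 and UBE2C calls were lost without shNT replicate 3 (adjusted p = 0.0753 and 0.0696), and that of CCNB1 also without shNR4A2 replicate 2 (0.0513).

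In shNR4A3 against shNT cells 2 genes were higher and 0 lower at 5% CO2 (6.19% of all genes called, 3.36% higher and 2.83% lower) and 3 and 0 with LPS (5.41%, as 3.24% and 2.17%). At 10% CO2 the counts were 1 and 0 (6.85%, as 3.49% and 3.35%) and, with LPS, 3 and 3 (14.5%, as 7.3% and 7.21%). Pairing raised these counts to 10, 12, 5 and 13, while the shares of all genes are those without pairing. Without single libraries the counts fell as well: to 1 at 5% CO2 without shNR4A3 replicate 2 or 3 or shNT replicate 1 or 3, to 1 with LPS without shNR4A3 replicate 3 or any shNT library, and to 2 or 3 at 10% CO2 with LPS without any shNR4A3 library or shNT replicate 2 or 3. The count at 10% CO2 rose to 5 without shNT replicate 1 and 2 without shNT replicate 3. The count of all genes with 1 library left out was 667 to 1014 and, with LPS, 419 to 1649 at 5% CO2. At 10% CO2 it was 595 to 2031 and, with LPS, 1269 to 2100.

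CCND1 was higher by 0.94 ± 0.12, 1.12 ± 0.09, 0.88 ± 0.11 and 1.08 ± 0.08, with no overlap of libraries in any condition. AURKB, the Aurora kinase of the chromosomal passenger complex, was called higher in 3 of 4. Its levels at 5% CO2 were 7.97, 9.89 and 7.94 in shNT and 10.5, 13.9 and 12.5 in shNR4A3 cells, and with LPS 8.3, 8.64 and 8.62 and 10.5, 12.3 and 11.8. At 10% CO2 they were 6.45, 8.27 and 9.97 and 8.54, 11.9 and 12.3, and with LPS 6.13, 7.5 and 8 and 8.32, 10.9 and 11.9. The groups overlapped at 10% CO2 without LPS, where the difference was 0.41 ± 0.16 and not called. The 3 calls were of 0.52 ± 0.13, 0.44 ± 0.11 and 0.52 ± 0.14, and each was lost without 1 of at least 4 of the 6 libraries, with adjusted p-values up to 0.105, 0.126 and 0.0982. CDKN1A was called higher with LPS at both CO2 levels (0.34 ± 0.09 and 0.48 ± 0.08), the first of which was lost without any library but shNR4A3 replicate 2. At 10% CO2 with LPS the replication genes MCM2 (-0.24 ± 0.08), CDC6 (-0.30 ± 0.09) and UNG (-0.32 ± 0.08) were lower, and none of these 3 calls held in every leave-one-out fit.

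Among the other pathway genes at 10% CO2 with LPS, shNR4A2 cells had 0 of 46 replication genes higher and 10 lower, and 2 of 59 mitotic genes higher and 17 lower, among them PBK, a mitotic kinase (-0.67 ± 0.10), and ASPM, a spindle pole protein (-0.62 ± 0.11). In shNR4A3 cells the same lists gave 0 and 8, and 2 and 4. Of all genes, 9.29% were called higher and 9.58% lower in shNR4A2 cells, and 7.3% and 7.21% in shNR4A3 cells. DTL, which targets CDT1 for degradation in S phase, was among the lower replication genes in both lines (-0.46 ± 0.09 and -0.33 ± 0.08). Monocytic markers differed in this condition as well. Of the 10, 5 were called higher and 0 lower in shNR4A2 cells (CD14, ITGAM, LYZ, CSF1R and SPI1), and 4 higher (ITGAM, LYZ, CSF1R and SPI1) and 1 lower (CTSG) in shNR4A3 cells. LYZ, the lysozyme gene, differed by 1.70 ± 0.10 and 2.15 ± 0.13, and CTSG, the cathepsin G gene, by -0.78 ± 0.28 (not called) and -1.62 ± 0.27. The sum of the 10 was 2190 to 2740 in shNT, 1710 to 2250 in shNR4A2 and 2010 to 2320 in shNR4A3 cells. CTSG and ELANE, with mean levels of 1160 and 1110 in shNT cells, made up most of it, so it says little about the other markers. LYZ and CSF1R were called higher in both lines in the other conditions as well, and CTSG lower in shNR4A3 cells at 5% CO2 in both states. The part of these markers in the differences was not tested.

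The 2 knockdown lines were set against each other over the 4 conditions, in 24 libraries, where 28.1% of all genes were called, 15.1% higher and 13% lower in shNR4A2 cells. Here 9 of the 49 genes were higher in shNR4A2 and 10 were higher in shNR4A3 cells. All 22 G2 and mitosis genes had a lower estimate in shNR4A2 cells, with a median of -0.18, and 9 of them were called. Of the 12 licensing and fork genes 9 had a higher estimate there, 3 were called higher (MCM5, GINS2 and CDC6) and 1 lower (MCM3). The median over all genes was 0.00. Over all genes, leaving out the libraries of a replicate number gave 2805 to 3724 calls. Of the 49 genes, leaving out replicate 2 gave 12 calls in place of 19. Pairing libraries by replicate number gave 34, and the share of all genes above is that without pairing.

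FOXM1 differed by -0.46 ± 0.07 (adjusted p = 1.19e-05), while its overlapping neighbour ITFG2 differed by -0.31 (adjusted p = 0.00809). FOXM1 in shNR4A3 cells was at 11.1, 14.1 and 12.9 and, with LPS, 10.5, 12.5 and 13.8 at 5% CO2, and at 10.3, 12.2 and 13.1 and 8.68, 10.6 and 11.6 at 10% CO2, near or above the shNT values. CCNA2 (-0.32 ± 0.05) was at 31, 32.1 and 36.3 in shNR4A2 and 36.9, 44.5 and 46.1 in shNR4A3 cells at 5% CO2 and at 29, 31.5 and 36 and 36.4, 44.5 and 44.6 at 10% CO2. With LPS it was at 27.9, 32 and 28.2 and 31.4, 38.1 and 35.3, and at 23.7, 24.4 and 24.3 and 26.9, 28.4 and 33.5. Every shNR4A3 library was above every shNR4A2 library of its condition except with LPS at 5% CO2, where the groups overlapped.

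AURKB (-0.50 ± 0.09) was at 6.67, 9.58 and 9.34 in shNR4A2 against 10.5, 13.9 and 12.5 in shNR4A3 cells at 5% CO2, and at 6.49, 8.78 and 8.69 against 8.54, 11.9 and 12.3 at 10% CO2. With LPS it was at 7.12, 8.57 and 7.37 against 10.5, 12.3 and 11.8, and at 5.88, 8.02 and 8.93 against 8.32, 10.9 and 11.9. At 10% CO2 the groups overlapped in both states, and replicate 1 was the lowest of its group in each.

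Of the genes higher in shNR4A2 cells, E2F8 (0.42 ± 0.06, adjusted p = 1.39e-05) and CDKN1A (0.41 ± 0.07, adjusted p = 1.09e-04) had the largest differences, and the levels of E2F8 in both lines are those given with its LPS response. CDKN1A in shNR4A3 cells was at 40.7, 54.9 and 47.6 and, with LPS, 66.5, 58.9 and 60.8 at 5% CO2, and at 30.7, 33.6 and 41.8 and 59.1, 49 and 54.8 at 10% CO2. GINS2 differed by 0.24 ± 0.05. It was at 9.23, 10.5 and 8.83 in shNR4A2 and 8.44, 8.2 and 8.63 in shNR4A3 cells at 5% CO2, 10.3, 10.5 and 9.92 and 8.15, 10.1 and 9.13 at 10% CO2, and with LPS at 8.87, 9.86 and 8.23 and 7.07, 7.63 and 6.98, and 10.4, 8.65 and 9.1 and 7.66, 7.91 and 7.56. The groups were apart in the LPS states and at 5% CO2 without LPS, and overlapped at 10% CO2 without LPS. CCND1 was higher in shNR4A2 than in shNR4A3 cells by 0.25 ± 0.05, a call lost without replicate 3 (adjusted p = 0.0582).

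In the wider lists 0 of 59 other mitotic genes were higher and 22 lower in shNR4A2 than in shNR4A3 cells, 7 of 46 other replication genes were higher and 5 lower, and 7 of 31 other G1 regulators were higher and 9 lower. The shares of all genes in this test were 15.1% higher and 13% lower. RACGAP1, a regulator of cytokinesis, differed by -0.26 ± 0.06 and PBK by -0.39 ± 0.07. POLE2, a subunit of the leading-strand polymerase, was lower (-0.45 ± 0.09) and CHAF1B, a histone chaperone of the fork, higher (0.20 ± 0.05).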

How the data were processed

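RNA-seq was analysed from 36 libraries of THP-1 cells, 3 per condition. Per the labels and the study's methods, polyA-selected libraries were sequenced as paired reads, and per the submitters' processing notes the tools were Trimmomatic 0.36, STAR 2.5.2b and featureCounts of Subread 1.5.2 with GRCh38. The authors deposited raw counts per gene, 1 table per library, with no normalization. Not given in the sources used here are the release of the gene annotation, whether strand was used in counting, and whether single reads or pairs were the unit. Without strand, reads from overlapping genes on opposite strands cannot be told apart. Gene symbols were matched by ID for 56410 of 57500 genes (98.1%). A library held between 16171161 and 23929138 counts. Counting error was small beside the spread between libraries: chi-square per degree of freedom between replicates was 6.25 to 27.2, and no library appeared to be deposited 2 times.

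Groups came from the labels. Genes passing edgeR's filterByExpr over all 36 libraries (minimum count 10, minimum total 15) were tested, 17720 in all. Each pairwise comparison was a quasi-likelihood fit of its 6 libraries after TMM scaling (edgeR 4.0.16, limma 3.58.1, R 4.3.3), with Benjamini-Hochberg adjustment over all genes tested and calls at an adjusted p under 0.05. The study's methods used DESeq2, which is an alternative here (DESeq2 1.42.0). Average responses and differences of responses were tested in 1 fit of all libraries of the lines concerned. An exact permutation test of 3 against 3 libraries cannot go below 0.1, so none was used. The scripts were tested on simulated counts.

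The 50 genes and the other lists were chosen with earlier results of these data known. Genes given library by library were, in each family of pairwise comparisons, those called in most comparisons, up to 8, with ties by smallest adjusted p, and in each test over 24 or 36 libraries those called, up to 6 by smallest adjusted p. Other pathway genes were counted, with up to 3 named per list and direction by smallest adjusted p. Any of the 50 genes could be named with its level and fold change.

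Replicate numbers come from the labels. Deviations from the condition means of same-numbered libraries were correlated over 9374 genes. Every pair was above 0.1 in all LPS comparisons but that of shNT cells at 5% CO2 (0.152 to 0.613), in all comparisons of lines but shNR4A2 against shNT at 10% CO2 without LPS (0.276 to 0.726), and in the CO2 comparison of basal shNR4A2 cells. The paired result is given beside these where it moved a count. For the CO2 average over 36 libraries, 146 of 198 pairs were above 0.1, with correlations from -0.47 to 0.833. That test had no term for the replicate number. Alternatives were other scalings, no filter, DESeq2, 1 fit of all libraries, the replicate block and leaving out each library.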

Additional observations from a re-analysis of the deposited data

Results flagged for a closer look

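The CO2 effect on CCNE2, the cyclin E2 gene, differed between LPS-treated and basal cells by 0.43 log2 units (edgeR, adjusted p = 0.0306, a test of the difference itself over all 36 libraries). It was the 1 gene of the 49 (2.04%) called in this test, a share near that of all genes (1.99%). The value was 0.24 (adjusted p = 0.628) without replicate 2, 0.45 (adjusted p = 0.216) without replicate 1 and 0.61 (adjusted p = 0.0163) without replicate 3. Exons of INTS8 on the opposite strand cover 37.0% of the CCNE2 exons, and INTS8 gave 0.19 (adjusted p = 0.263) in the same test. The part of INTS8 reads in the CCNE2 value was not tested.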

How the results depend on the processing

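Values are the number of the 49 genes called. The share of all genes called under each setting is not given here, so a changed count is not a result about the 49 alone. Without the filter on low counts the CO2 comparisons gave 2 in basal shNR4A3 cells and, with LPS, 12, 11 and 9 in shNT, shNR4A2 and shNR4A3 cells, the comparison of shNR4A2 with shNT gave 4 and, with LPS, 5 at 5% CO2, that of shNR4A3 with shNT gave 3 and, with LPS, 10 at 10% CO2, and the LPS response of shNR4A2 against shNT gave 1. With DESeq2 the CO2 comparisons gave 2 in basal shNR4A3 cells and 9, 2 and 2 with LPS, and shNR4A2 against shNT gave 4 at 5% CO2. With scaling by library size alone the CO2 comparisons with LPS gave 7 in shNT and 0 in shNR4A3 cells, the LPS comparisons gave 21 (shNR4A2) and 27 (shNR4A3) at 5% CO2 and 35 (shNT) and 37 (shNR4A2) at 10% CO2, shNR4A2 against shNT gave 1 at 10% CO2, and shNR4A3 against shNT gave 1 at 5% CO2 with LPS. MCM7 with LPS in shNR4A3 cells at 10% CO2 reversed there (-0.029, adjusted p = 0.801). With 1 fit of all 36 libraries the CO2 comparisons with LPS gave 8 (shNR4A2) and 2 (shNR4A3), shNR4A2 against shNT gave 2 at 5% CO2 and 7 at 10% CO2 with LPS, and shNR4A3 against shNT gave 1 at 5% CO2 without and 1 with LPS. The cause of these differences was not tested.

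With the replicate block the CO2 comparisons gave 3 in basal shNR4A3 cells and 8, 6 and 3 with LPS in shNT, shNR4A2 and shNR4A3 cells, none of which the numbers were shown to pair. The block gave 17 (shNR4A2) and 28 (shNR4A3) for LPS at 5% CO2 and 31 for shNT cells at 10% CO2. It gave 17, 13, 5 and 24 for shNR4A2 against shNT (5% CO2, with LPS, 10% CO2, with LPS), 10, 12, 5 and 13 for shNR4A3 against shNT, 34 for shNR4A2 against shNR4A3 and 9 for the CO2 effect with LPS against basal. All 194 calls of single genes held under the block.

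Leaving out libraries gave, for CO2, 0 to 1 in basal shNR4A3 cells and 0 to 6, 0 to 4 and 0 to 0 with LPS in shNT, shNR4A2 and shNR4A3 cells. For LPS it gave 11 to 16, 6 to 12 and 11 to 19 at 5% CO2 and 14 to 26, 18 to 27 and 23 to 32 at 10% CO2. It gave 1 to 2, 2 to 3, 1 to 4 and 4 to 12 for shNR4A2 against shNT, and 1 to 2, 1 to 3, 1 to 5 and 2 to 8 for shNR4A3 against shNT. Over all lines and states it gave 12 to 28 for CO2, 12 to 22 for shNR4A2 against shNR4A3, and 0 to 1 for the CO2 effect with LPS against basal. Where a fit left 1 arm with 2 libraries, its spread was pooled with the other arm.

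Of the 194 calls of single genes, 185 held with DESeq2, 186 with size factors by relative log expression, 173 by library size, 179 without the filter and 139 in the fit of all 36 libraries. In the fit of all libraries 27 others kept the direction only, and the average tests, which are already such a fit, have no value there. Over the fits that left out libraries, a call held 783 times and kept only its direction 240 times.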
